A study of Macaca mulatta with 26 samples.

Results

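The pineal gland of rhesus macaques was compared at dawn and at midnight by RNA sequencing of total RNA. Of the 26 libraries in the series, 6 entered the comparison: the 3 pineal libraries labelled dawn and the 3 labelled midnight. Values were FPKM, fragments scaled to gene length and to library depth, so levels are given per length. A gene was tested where it had at least 1 FPKM in at least 3 pineal libraries, which left 19110 genes. The series also covers mid-day and dusk, the retina at the same 4 times, and 2 control pools mixed from 16 tissues, with 3 libraries per tissue and time. Per the labels, the study used 12 adult animals of both sexes, 3 to 33 years old and gathered over 11 years, 3 for each time, under a day of 12 h light and 12 h dark whose light phase began at 0600. Dawn animals were killed between 0500 and 0700, a window that includes lights on, and midnight animals between 2300 and 0100. Whether a given dawn animal had already seen light, and its age and sex, are not given in the sources used here. All animals were anaesthetised with ketamine, and tissue removal was finished within 45 minutes. The labels describe dim red light and a blindfold for animals taken at night or dusk and give no such step for dawn, so time and handling cannot be told apart. RNA came from individual glands, so the 3 libraries of a time are separate animals, and no drug or genotype separated the groups in the labels.

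The pineal gland is a neuroendocrine organ whose main cells, the pinealocytes, turn serotonin into melatonin during the night. Midnight falls in the middle of the dark phase and dawn at its end. In rats, noradrenaline released at night raises cyclic AMP in pinealocytes and induces transcription of AANAT, the enzyme that sets the rate of melatonin synthesis, whereas in primates the AANAT protein is thought to be the main point of control. Pinealocytes share a lineage programme with photoreceptors and express many genes of the phototransduction cascade.

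Between 11.7 and 13.3 M gene-assigned reads stood behind each of the 6 libraries. Replicates of a time differed far beyond counting noise (chi-square of counts 18.2 to 28.5 per gene). Across genes, levels correlated at 0.928 to 0.942 within a time and at 0.904 to 0.937 between the times, as a description over 19110 genes that are not independent replicates. The labelled tissue was checked with 8 pinealocyte genes, whose summed level was 999, 966 and 1192 FPKM in the dawn libraries and 984, 1315 and 1252 FPKM in the midnight libraries, and 5.99 and 6.45 FPKM in the control pools. In the retina, which shares most of these genes, the sum was 715 to 991 FPKM, and ISL1 was under 1 FPKM in all 6 pineal libraries. XIST, which is transcribed from the inactive X chromosome, was high in dawn 2 and midnight 1 alone, so 1 of 3 libraries per time.

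The authors' own test called 261 genes between dawn and midnight, and limma called 0. The authors' deposited table gave an adjusted p to 18536 genes, and at an adjusted p under 0.05 it called 118 (0.637%) that rose at dawn and 143 (0.771%) that fell, 261 in all. Absolute log2 changes in the authors' deposited table ran from 0.41 to 1.97 among those calls, with a median of 0.95. They are not the same measure as the limma differences given beside them. Their median size was 0.93 for genes that rose and 0.96 for genes that fell, against limma medians of 0.956 and -1.036. Single genes can differ more: DOCK2 was at 1.62 in the authors' deposited table and 2.13 by limma. The test on log2(FPKM + 0.5) with limma, in a fit of all 12 pineal libraries, called 0 of 19110 genes at a Benjamini-Hochberg adjusted p under 0.05 (0%), with a smallest adjusted p of 0.207. At an unadjusted p under 0.05 by limma, 804 genes (4.21%) were higher and 1015 (5.31%) lower at dawn, and voom on whole reads recovered from the FPKM values called 0, with 1801 at an unadjusted p under 0.05. All 3 dawn libraries lay above all 3 midnight libraries in 1339 genes (7.01%) and below them in 1864 (9.75%). Of the 261 genes called in the authors' deposited table, 251 passed the filter on low values, all 251 had the same sign by limma, 216 were under an unadjusted limma p of 0.05, and 257 had libraries that did not overlap between the times. Both readings rest on the same 6 libraries and are not independent of each other. "Rose" and "fell" are said only of genes called in the authors' deposited table, and other genes are given by their values. Gene names are those of a human annotation, and the submitters' processing notes name a human genome build, not a macaque one. In bulk RNA, fewer cells of a type and less RNA per cell cannot be told apart.

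**Figure D1:**
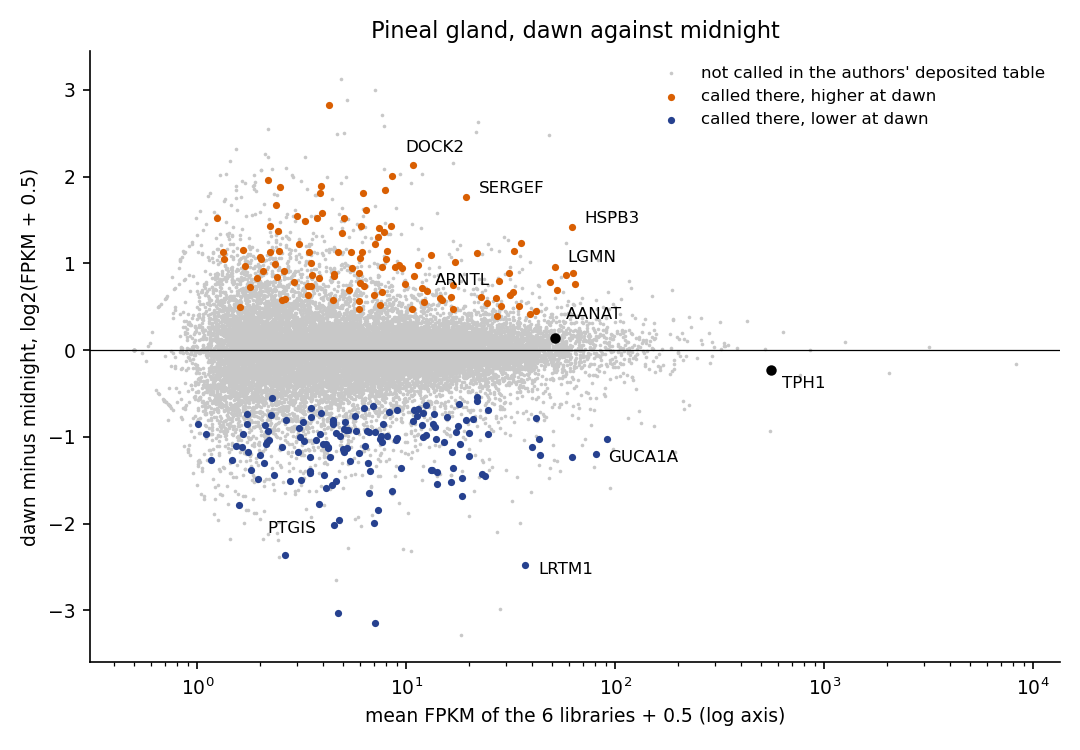
Each point is 1 of the 19110 tested genes, with the mean FPKM of the 6 libraries plus 0.5 on a log axis across and the limma difference, dawn minus midnight on the log2(FPKM + 0.5) scale, up the page. Orange and blue points are genes that rose and fell at dawn in the authors' deposited table. LRTM1 lies lowest among the labelled points (log2 -2.48), and AANAT (0.14) and TPH1 (-0.22) lie near 0.

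LRTM1, which encodes a leucine-rich repeat protein of the membrane, had the smallest adjusted p of the authors' deposited table, where it fell at dawn (log2 -1.97, adjusted p = 3.11e-10). Its level was 15.2, 7.65 and 9.78 FPKM in the dawn libraries, against 84.2, 48 and 55.1 FPKM in the midnight libraries. The groups did not overlap, and the highest dawn library lay far below the lowest midnight library. By limma the difference was log2 -2.48 ± 0.44 (SE), with an adjusted p of 0.25, and -2.74 to -2.24 when each of the 6 libraries was left out in turn. At the other times the gene averaged 72.5 ± 54.8 FPKM at mid-day and 128 ± 26.3 FPKM at dusk (SD, n = 3 each), so its mean was lowest at dawn.

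Other genes that fell at dawn included enzymes of small signalling molecules. ALDH1A3, which makes retinoic acid from retinaldehyde, was at 2.05, 2.01 and 2.02 FPKM in the dawn libraries, against 7.82, 4.49 and 4.57 FPKM in the midnight libraries. Its 3 dawn libraries were nearly equal, and it fell in the authors' deposited table (log2 -1.22, adjusted p = 1.60e-04; limma adjusted p = 0.25). PTGIS, the prostacyclin synthase, was at 1.39, 1.63 and 0.688 FPKM at dawn and 9.94, 3.67 and 6.71 FPKM at midnight and also fell in the authors' deposited table (log2 -1.54, adjusted p = 3.33e-04; limma adjusted p = 0.435). TGM2, the tissue transglutaminase that crosslinks proteins, was at 3.75, 3.80 and 2.18 FPKM at dawn and 10.8, 8.41 and 8.43 FPKM at midnight and fell there as well (log2 -1.28, adjusted p = 2.17e-05 in the authors' deposited table). In each of these genes the midnight values spread more widely than the dawn values in FPKM. In TGM2 the spread in proportion to the level was wider at dawn.

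LDB2, a cofactor of LIM-domain transcription factors, was at 4.05, 4.25 and 4.98 FPKM in the dawn libraries, against 8.01, 11.2 and 10.3 FPKM in the midnight libraries. It fell in the authors' deposited table (log2 -1.03, adjusted p = 2.88e-05), and by limma the difference was log2 -1.06 ± 0.21 (SE) with an adjusted p of 0.25. PTP4A3, a membrane-bound phosphatase, was at 29.2, 20.9 and 33.8 FPKM at dawn and 49.2, 71.2 and 51.3 FPKM at midnight and fell in the authors' deposited table (log2 -0.87, adjusted p = 0.0129). HIGD2A, which helps assemble respiratory complexes in mitochondria, was at 4.47, 4.48 and 5.12 FPKM at dawn and 12.1, 17.6 and 9.91 FPKM at midnight and fell there too (log2 -1.17, adjusted p = 0.00227 in the authors' deposited table). MYO9B, an unconventional myosin, had the smallest limma p among the genes named for being lower at dawn, at 18.6, 18.9 and 17.2 FPKM at dawn and 25.9, 29.1 and 34.4 FPKM at midnight (limma log2 -0.69 ± 0.11 (SE), adjusted p = 0.25). It fell in the authors' deposited table (log2 -0.65, adjusted p = 0.00688). Each of these genes had its groups apart, which was a condition for naming them.

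SLC5A5, DSP and ATP2A3 stood out by the size of the difference and had wider scatter, whereas MXRA8 was named for its limma p. SLC5A5, the sodium-iodide symporter, was at 5.08, 2.46 and 1.35 FPKM at dawn and 8.49, 10.4 and 9.12 FPKM at midnight and fell in the authors' deposited table (log2 -1.13, adjusted p = 0.0158). DSP, the desmosomal protein desmoplakin, was at 13.1, 6.78 and 5.15 FPKM at dawn and 24.1, 21.7 and 23.9 FPKM at midnight and fell there as well (log2 -1.14, adjusted p = 0.0045 in the authors' deposited table). MXRA8, a matrix-remodelling membrane protein, was at 3.36, 3.09 and 1.97 FPKM at dawn and 7.99, 6.22 and 5.70 FPKM at midnight and fell in the authors' deposited table (log2 -0.94, adjusted p = 0.038). In SLC5A5 and DSP dawn 1 was the highest dawn library. Midnight lay above all dawn libraries in each of these genes, as the rule for naming them required. ATP2A3, a calcium pump of the endoplasmic reticulum, was at 1.77, 0.634 and 0.621 FPKM at dawn and 7.65, 2.99 and 92.5 FPKM at midnight. Midnight 3 lay far above the other 5 libraries, the limma log2 difference of -3.28 became -1.90 without it, and the authors' deposited table gave the gene no adjusted p.

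Other genes of the lower group included a scaffold and a splicing factor. SH3RF1, a scaffold of stress kinase signalling, was at 5.45, 4.75 and 4.69 FPKM at dawn and 7.58, 9.16 and 11.7 FPKM at midnight and fell in the authors' deposited table (log2 -0.81, adjusted p = 0.00988). LUC7L, a splicing factor, was at 22.4, 22.5 and 22.3 FPKM at dawn and 27.9, 31 and 28.5 FPKM at midnight, and PCMTD1, a relative of a protein repair methyltransferase, had a limma log2 difference of -0.42. Neither of those was called in the authors' deposited table (adjusted p = 0.065 for LUC7L and 0.0596 for PCMTD1). Their groups did not overlap, which was a condition for naming them.

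Among genes that rose at dawn, NFASC, the axonal adhesion protein neurofascin, had the smallest limma p of those named. Its level was 12.9, 9.21 and 8.81 FPKM in the dawn libraries, against 4.91, 4.93 and 4.19 FPKM in the midnight libraries. The difference was log2 1.05 ± 0.16 (SE) by limma with an adjusted p of 0.207, 0.88 to 1.15 when each library was left out in turn, and it rose in the authors' deposited table (log2 1.06, adjusted p = 2.56e-05). At the other times it averaged 6.88 ± 0.183 FPKM at mid-day and 7.14 ± 1.10 FPKM at dusk (SD, n = 3 each), between the midnight and dawn levels. LGMN, the lysosomal protease legumain, was at 89.8, 59.97 and 54.2 FPKM at dawn and 31.9, 34.1 and 35.5 FPKM at midnight and rose in the authors' deposited table (log2 0.91, adjusted p = 0.00285; limma adjusted p = 0.25). Dawn 1 was the highest of its libraries, and its mid-day and dusk means, 38.8 ± 6.86 FPKM at mid-day and 32.5 ± 1.92 FPKM at dusk (SD, n = 3 each), lay close to midnight.

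SERGEF, a protein linked to secretion, was at 21.6, 39.7 and 26.8 FPKM in the dawn libraries, against 5.43, 10.7 and 8.84 FPKM in the midnight libraries, and rose in the authors' deposited table (log2 1.49, adjusted p = 1.34e-05). HSPB3, a small heat shock protein, was at 67.9, 124 and 76.5 FPKM at dawn and 46.2, 24 and 29.4 FPKM at midnight and rose there (log2 1.15, adjusted p = 0.00285 in the authors' deposited table). PPP1R1C, an inhibitor of protein phosphatase 1, was at 47.4, 54.1 and 32.7 FPKM at dawn and 20.1, 18.5 and 19.9 FPKM at midnight and rose in the authors' deposited table (log2 1.10, adjusted p = 2.17e-05). Dawn 2 was the highest library in all 3 genes, and dawn and midnight did not overlap. The limma adjusted p-values were 0.417, 0.477 and 0.496 for the 3 genes in that order.

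Secreted and signalling proteins were among the other genes that rose. GNRH2, the second form of gonadotropin-releasing hormone, was at 6.61, 6.59 and 7.67 FPKM at dawn and 2.00, 3.21 and 3.67 FPKM at midnight and rose in the authors' deposited table (log2 0.97, adjusted p = 0.0297). FNDC4, a secreted protein with a fibronectin domain, was at 40.3, 35.5 and 41.6 FPKM at dawn and 23, 26.6 and 23.5 FPKM at midnight and rose there (log2 0.67, adjusted p = 0.00285 in the authors' deposited table). CHRNB4, the beta 4 subunit of nicotinic acetylcholine receptors, was at 11.7, 15.7 and 16 FPKM at dawn and 8.51, 4.57 and 8.68 FPKM at midnight and rose in the authors' deposited table (log2 0.83, adjusted p = 0.0408). Dawn lay above midnight in every library of these genes, by a limma log2 of 1.14 in GNRH2, 0.67 in FNDC4 and 0.99 in CHRNB4. TSHR, the thyrotropin receptor, was at 9.34, 6.31 and 20.2 FPKM at dawn and 2.66, 1.32 and 4.64 FPKM at midnight, with dawn 3 highest, and rose in the authors' deposited table (log2 1.23, adjusted p = 0.0136).

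Membrane and cytoskeletal genes were also among those that rose. MLC1, a membrane protein of astrocytes, was at 38.8, 42.3 and 39.8 FPKM at dawn and 25.6, 32 and 27 FPKM at midnight and rose in the authors' deposited table (log2 0.51, adjusted p = 0.0146). MAPRE3, which binds the growing ends of microtubules, was at 31.2, 29.2 and 30.8 FPKM at dawn and 22.4, 24.1 and 22.5 FPKM at midnight and rose there (log2 0.41, adjusted p = 0.0385 in the authors' deposited table). LDB3, a protein of muscle Z-discs, was at 3.36, 3.14 and 4.92 FPKM at dawn and 1.53, 1.42 and 1.04 FPKM at midnight and rose in the authors' deposited table (log2 1.31, adjusted p = 2.88e-05). The limma differences of these genes were 0.51, 0.39 and 1.22 on the log2 scale. TNPO3, a nuclear import receptor, was at 26.6, 26.1 and 23.9 FPKM at dawn and 21.4, 19 and 19.7 FPKM at midnight, and NOL9, a kinase of ribosomal RNA processing, had a limma log2 difference of 0.38. Neither was called in the authors' deposited table (adjusted p = 0.142 for TNPO3 and 0.139 for NOL9).

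Single libraries weighed on some of the larger values. DOCK2, an activator of Rac in blood cells, was at 4.78, 26 and 22.3 FPKM at dawn and 2.65, 3.59 and 2.41 FPKM at midnight. Dawn 2 and dawn 3 were high and dawn 1 lay close to midnight. It rose in the authors' deposited table (log2 1.62, adjusted p = 1.60e-04), and without dawn 1 it was called by limma (log2 2.87, adjusted p = 0.0127). KLK6, a secreted protease made by oligodendrocytes among other cells, was at 4.01, 22.2 and 11.1 FPKM at dawn and 3.80, 3.93 and 2.64 FPKM at midnight and rose in the authors' deposited table (log2 1.11, adjusted p = 0.033). Without dawn 2 its limma log2 difference was 0.88, against 1.43 with all libraries. Its dawn libraries stood in the same order as the summed oligodendrocyte markers given below, whose part in the difference was not tested. GLYATL2, an acyltransferase, was at 7.71, 6.78 and 8.92 FPKM at dawn and 0, 2.85 and 0 FPKM at midnight. Midnight 1 and midnight 3 were listed at 0. Its mean normalised count in the authors' deposited table was only 3.30, so these values rest on few reads. That table gave it no adjusted p.

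**Figure D2:**
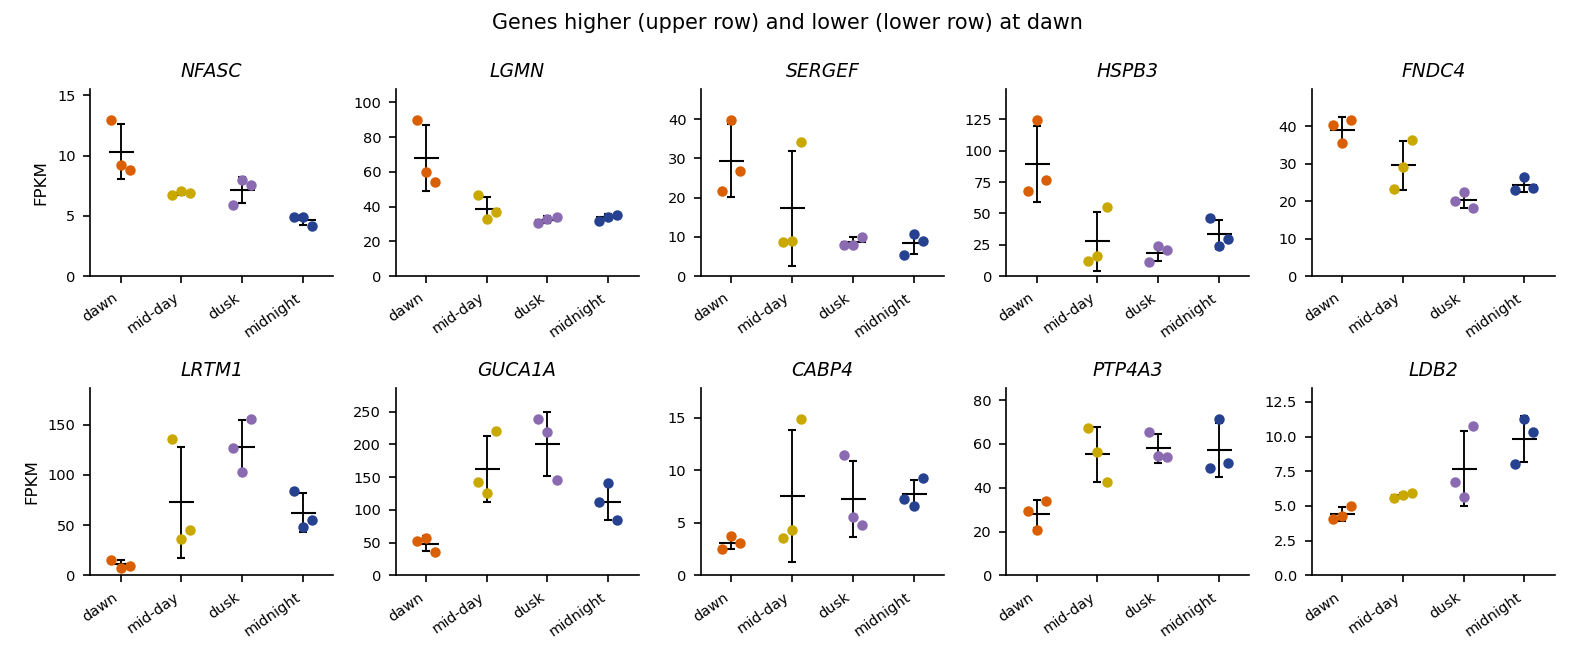
FPKM per library of 10 named genes of the pineal gland at dawn, mid-day, dusk and midnight, each panel with its own axis from 0, points for libraries, and black bars for the mean ± SD of 3. In the upper row dawn lies above midnight and in the lower row below it in every library, and the mid-day libraries of SERGEF, HSPB3, LRTM1 and CABP4 spread widely.

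Melatonin synthesis genes overlapped between dawn and midnight. All 5 enzyme genes were tested, 0 were called by either test, and the groups overlapped in all 5. AANAT was at 52.2, 47.1 and 61.7 FPKM in the dawn libraries, against 43.9, 52.6 and 48.7 FPKM in the midnight libraries, and the dawn range took in all but 1 midnight library. Its difference was log2 0.14 ± 0.13 (SE), with a 95% interval of -0.13 to 0.42 and a limma adjusted p of 0.734, and that interval excludes a log2 difference of 1 in either direction. ASMT, the methyltransferase of the last step, was at 148, 128 and 144 FPKM at dawn and 139, 182 and 184 FPKM at midnight (limma log2 -0.26, interval -0.72 to 0.21). TPH1, the hydroxylase of the first step, was at 431, 474 and 635 FPKM at dawn and 455, 669 and 679 FPKM at midnight (limma log2 -0.22, interval -0.75 to 0.30). Midnight 2 and midnight 3 had the highest values of both genes. DDC, the decarboxylase that makes serotonin, was at 122, 119 and 181 FPKM at dawn and 123, 106 and 91.4 FPKM at midnight, with only dawn 3 well above the rest.

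Genes known to be induced at night in the rat pineal were also mixed between the times. Of 15 such genes all 15 were tested, 0 were called by either test, all overlapped, and 11 of 15 had a negative difference, with a median log2 of -0.18 against -0.02 over all genes tested. DIO2, the deiodinase that activates thyroid hormone and a cyclic AMP target in rats, was at 0.736, 1.34 and 0.964 FPKM at dawn and 6.31, 2.64 and 1.29 FPKM at midnight. Of its dawn values only dawn 2 lay above midnight 3, and the limma difference was log2 -1.17 ± 0.71 (SE) with an adjusted p of 0.617, and -0.66 on the log2 scale without midnight 1. MAT2A, which makes the methyl donor used by ASMT, was at 75, 83.7 and 146 FPKM at dawn and 144, 157 and 174 FPKM at midnight, with dawn 3 at the level of midnight 1. FOSL2, an immediate early transcription factor, was at 7.79, 8.48 and 15.5 FPKM at dawn and 14.1, 11 and 24.3 FPKM at midnight, with dawn 3 among the midnight values. The list median was -0.523 without dawn 3 and 0.016 without dawn 1, the lowest and highest values when a library was left out.

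In the core clock, 1 of 23 tested genes rose in the authors' deposited table and 0 fell. Over all genes with an adjusted p there, 0.637% rose and 0.771% fell. ARNTL, which encodes the activator BMAL1, was at 13.6, 13.6 and 14.6 FPKM in the dawn libraries, against 11.1, 8.55 and 8.46 FPKM in the midnight libraries, and rose there (log2 0.56, adjusted p = 0.038 in the authors' deposited table). By limma the difference was log2 0.56 ± 0.12 (SE) (adjusted p = 0.33), and it was 0.49 to 0.68 without each library in turn. NPAS2, which partners BMAL1 as CLOCK does, was at 5.74, 5.23 and 5.84 FPKM at dawn and 5.12, 4.58 and 3.90 FPKM at midnight, with dawn just above midnight in every library. NR1D2, a repressor of ARNTL, was at 53.9, 54.7 and 61.8 FPKM at dawn and 66.7, 65.7 and 68.9 FPKM at midnight. HLF, a clock output factor, was at 13, 10.4 and 11.3 FPKM at dawn and 13.8, 15.3 and 14.5 FPKM at midnight. Both lay lower at dawn in every library, by limma log2 -0.24 (adjusted p = 0.566) and -0.32 (adjusted p = 0.546). The period and cryptochrome genes overlapped throughout. PER1 was at 8.37, 8.68 and 10.9 FPKM at dawn and 6.95, 11.8 and 10.4 FPKM at midnight (limma log2 -0.03, and 0.0005 after quantile normalization), and PER2, PER3, CRY1 and CRY2 overlapped in the same way. In the list as a whole 2 genes lay apart above and 3 below, close to the shares over all genes, and the median log2 was -0.028 on this scale and 0.006 after quantile normalization.

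**Figure D3:**
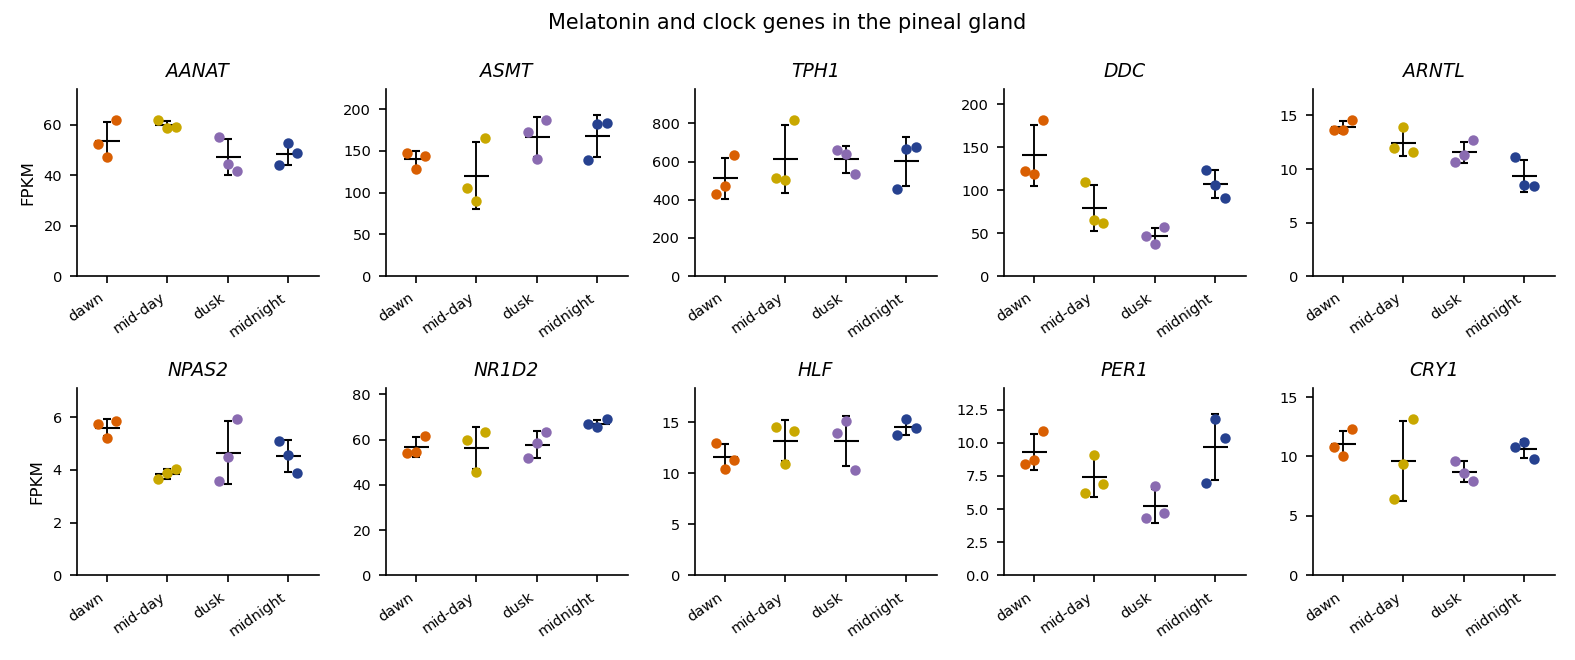
FPKM per library of 4 melatonin genes and 6 clock genes in the pineal gland at dawn, mid-day, dusk and midnight, with axes from 0, points for libraries and black bars for the mean ± SD of 3. ARNTL was highest at dawn (13.9 ± 0.548 FPKM at dawn and 9.37 ± 1.497 FPKM at midnight), AANAT, ASMT and TPH1 overlapped between dawn and midnight, and DDC was lowest at dusk.

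In the phototransduction list, 38 of 43 genes were tested, and 2 fell at dawn in the authors' deposited table, where 0.771% of all genes fell. GUCA1A, the calcium sensor that controls retinal guanylate cyclase, was at 52, 57.7 and 36.1 FPKM in the dawn libraries, against 112, 140.3 and 83.8 FPKM in the midnight libraries. It fell in the authors' deposited table (log2 -1.03, adjusted p = 8.68e-04), and by limma the difference was log2 -1.19 ± 0.28 (SE) with an adjusted p of 0.369. The other times were at 142, 125 and 220.0 FPKM at mid-day and 238, 219 and 145 FPKM at dusk, all above every dawn library. AIPL1, a chaperone of the photoreceptor phosphodiesterase, was at 13.3, 11.9 and 8.26 FPKM at dawn and 17.3, 18.5 and 21.7 FPKM at midnight and fell in the authors' deposited table (log2 -0.68, adjusted p = 0.0499), close to the threshold. PDE6B, a catalytic subunit of that phosphodiesterase, was at 6.49, 6.01 and 4.47 FPKM at dawn and 4.30, 3.18 and 3.47 FPKM at midnight. ROM1, a disc membrane protein, was at 89.8, 91.7 and 104 FPKM at dawn and 82.7, 60.8 and 51.2 FPKM at midnight. These lay the other way, higher at dawn in every library, by limma log2 0.56 and 0.57 (adjusted p = 0.488 and 0.488). In the list 2 members lay apart above and 4 below midnight, near the shares over all genes. The median log2 was -0.05, and it turned to 0.065 without dawn 3, 0.017 without dawn 1 and 0.015 without midnight 1.

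CRX, the homeodomain factor that drives photoreceptor and pineal genes, was at 170.3, 173 and 182 FPKM at dawn and 188, 224 and 201 FPKM at midnight, lower at dawn in every library by a limma log2 of -0.22 (adjusted p = 0.548). It was the 1 of 11 tested transcription factors of photoreceptors and pinealocytes whose groups did not overlap. That is near the 9.75% of all genes that lay apart below midnight. BSX, a homeodomain factor of the pineal gland and hypothalamus, was at 29.3, 21.9 and 28.2 FPKM at dawn and 18.9, 26.8 and 19.1 FPKM at midnight with overlap.

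At the ribbon synapse, CABP4, which tunes the calcium channel of photoreceptor terminals, was at 2.53, 3.72 and 3.11 FPKM in the dawn libraries, against 7.30, 6.62 and 9.23 FPKM in the midnight libraries, and fell in the authors' deposited table (log2 -1.13, adjusted p = 1.30e-04). Its mid-day and dusk libraries, at 3.60, 4.30 and 14.8 FPKM at mid-day and 11.4, 5.53 and 4.79 FPKM at dusk, covered both ranges. Other release genes lay the other way: 6 of 19 tested members were apart above midnight, against 7.01% of all genes, and 4 of them were under an unadjusted limma p of 0.05, against 4.21%. PCLO, a scaffold of the active zone, was at 26.3, 20.1 and 21.1 FPKM at dawn and 16.9, 16.5 and 20.03 FPKM at midnight. BSN, its partner scaffold, was at 4.16, 3.01 and 2.80 FPKM at dawn and 2.22, 2.58 and 2.29 FPKM at midnight. RIMS1, which docks vesicles there, was at 1.75, 4.01 and 1.77 FPKM at dawn and 0.859, 1.44 and 0.809 FPKM at midnight, with dawn 2 highest. Brain neurons also express these genes, and 0 of the 6 were called in the authors' deposited table. The summed level of 10 brain neuron markers was 104, 108 and 167 FPKM in the dawn libraries and 81.2, 80.8 and 128 FPKM in the midnight libraries, with RBFOX3 and SLC32A1 under 1 FPKM in all 6, and its part in the differences was not tested. Single libraries moved the count: 0 members were higher at an unadjusted limma p under 0.05 without midnight 1, and 2 without dawn 1, midnight 2 or midnight 3.

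Of 28 dopamine, serotonin and melatonin signalling genes in the table, 11 were tested. DRD2, an inhibitory dopamine receptor, was at 5.04, 5.47 and 9.89 FPKM at dawn and 3.84, 2.11 and 4.47 FPKM at midnight, above midnight in every dawn library (limma log2 0.87, adjusted p = 0.488). HTR2C, a serotonin receptor that the choroid plexus also makes in quantity, was at 33.3, 9.72 and 7.25 FPKM at dawn and 56.1, 46.8 and 36.7 FPKM at midnight, below midnight in every dawn library (limma log2 -1.74, adjusted p = 0.706). Of 28 tested genes of adrenergic and cyclic AMP signalling, 2 lay apart above midnight and 3 below, close to the 7.01% and 9.75% of all genes. PRKAR1B, a regulatory subunit of the cyclic AMP-dependent kinase, was at 7.01, 8.54 and 8.07 FPKM at dawn and 3.91, 6.12 and 5.41 FPKM at midnight, and ADCY7, an adenylyl cyclase, had a limma log2 difference of -0.65. No member of these receptor and cyclic AMP lists was called by either test.

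Most interferon response genes lay lower at dawn, and 3 of them fell in the authors' deposited table, where 0.771% of all genes fell. Of 21 listed genes 20 were tested. Of these, 19 had a negative difference, 10 lay apart below midnight and 0 above, against 9.75% and 7.01% of all genes, and 8 were lower at an unadjusted limma p under 0.05, against 5.31%. MX1, an antiviral GTPase, was at 7.70, 8.56 and 7.11 FPKM at dawn and 11.2, 14 and 13.5 FPKM at midnight and fell in the authors' deposited table (log2 -0.67, adjusted p = 0.00285). MX2, its relative, was at 2.34, 2.38 and 1.57 FPKM at dawn and 4.34, 3.95 and 3.37 FPKM at midnight and fell there too (log2 -0.77, adjusted p = 0.0155 in the authors' deposited table). XAF1, a pro-apoptotic target of interferon, was at 2.12, 2.58 and 1.94 FPKM at dawn and 3.73, 3.66 and 3.94 FPKM at midnight and fell as well (log2 -0.70, adjusted p = 0.00966 in the authors' deposited table). In all 3 genes the groups did not overlap. BST2, the tether of budding virions, was at 16.8, 12.1 and 14.8 FPKM at dawn and 25.6, 20.4 and 23.5 FPKM at midnight (limma log2 -0.65 ± 0.14 (SE), adjusted p = 0.343) and was not called in the authors' deposited table. The list's median log2 was -0.463, between -0.574 and -0.379 without each library, and -0.442 and -0.437 after median-of-ratios and quantile scaling. Without dawn 3, 5 members were lower at an unadjusted limma p under 0.05. Of the genes outside the list, LGALS3BP, a secreted lectin ligand induced by interferon, was at 8.14, 11.3 and 7.95 FPKM at dawn and 14.6, 18.3 and 17.4 FPKM at midnight and fell in the authors' deposited table (log2 -0.78, adjusted p = 0.00473). TRIM21, an antibody receptor in the cytosol, was at 5.81, 4.23 and 4.93 FPKM at dawn and 7.95, 8.86 and 8.34 FPKM at midnight and missed the threshold of the authors' deposited table (adjusted p = 0.055). The 14 microglia and macrophage markers, whose cells respond to interferon, had a summed level of 154, 199 and 122 FPKM in the dawn libraries and 179.6, 244 and 176 FPKM in the midnight libraries, with MRC1 at 0 in all 6, and their part in the difference was not tested.

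Most genes of the cytosolic ribosome lay slightly lower at dawn. Of 69 tested genes, 62 had a negative difference and 0 were called by either test. Of them 22 lay apart below midnight and 0 above, against 9.75% and 7.01% of all genes, and 11 were lower at an unadjusted limma p under 0.05, against 5.31% of all genes. The median log2 was -0.172, and -0.145 and -0.149 after median-of-ratios and quantile scaling. RPL13, of the large subunit, was at 5.92, 5.08 and 8.60 FPKM at dawn and 10.9, 10.1 and 13.2 FPKM at midnight (limma log2 -0.78). All 3 dawn libraries of that gene lay below the midnight libraries. Ribosomal protein genes have many near-identical pseudogene copies, so their counts are uncertain, and 8 of 77 members in the table did not pass the filter. Without midnight 1, 3 members were lower at an unadjusted limma p under 0.05, and without dawn 3, 4 were.

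The heat shock and cholesterol lists had members apart below midnight and none above. HSPB3, the small heat shock protein described above that rose at dawn, is not in the heat shock list. Of 22 heat shock genes, 6 lay apart below, against 9.75% of all genes. The list median was -0.076, and -0.124 without dawn 1 and -0.12 without midnight 3. BAG3, a cochaperone, was at 12.9, 16 and 13 FPKM at dawn and 25.6, 18.5 and 22.9 FPKM at midnight (limma log2 -0.65, adjusted p = 0.417). Of 24 cholesterol synthesis genes, 6 lay apart below, against the same 9.75%, with a list median of -0.161, and -0.086 without dawn 2. EBP, a sterol isomerase, was at 11.3, 11 and 14.1 FPKM at dawn and 21.6, 22.6 and 14.3 FPKM at midnight, with midnight 3 just above dawn 3.

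Of 26 tested immediate early genes, 23 had a negative difference and 4 lay apart below midnight, against 9.75% of all genes. The median was -0.301, but -0.513 without midnight 1, -0.5 without dawn 3, -0.2 without midnight 3 and -0.185 without dawn 1. IER3, a stress-induced survival factor, was at 3.73, 4.18 and 5.01 FPKM at dawn and 11.3, 7.77 and 7.34 FPKM at midnight and fell in the authors' deposited table (log2 -0.84, adjusted p = 0.0343). ZFP36, which destabilises messenger RNA, was at 3.73, 4.93 and 4.21 FPKM at dawn and 5.47, 6.53 and 7.22 FPKM at midnight (limma log2 -0.53, adjusted p = 0.5). The count of 4 at an unadjusted limma p under 0.05 became 1 without dawn 3 and 2 without dawn 2 or midnight 1. CDKN1A, the cell cycle inhibitor p21, was at 3.10, 2.54 and 3.28 FPKM at dawn and 7.32, 6.46 and 4.57 FPKM at midnight. It was the 1 of 13 tested glucocorticoid response genes that fell in the authors' deposited table (log2 -0.87, adjusted p = 0.0139), where 0.771% of all genes fell. Of the 13, 6 had a positive and 7 a negative difference, with a median log2 of -0.031. In that list 1 member lay apart below midnight, near the 9.75% of all genes.

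In the unfolded protein response, 1 of 23 members lay apart above midnight, against 7.01% of all genes, and 0 were called. The list median was 0.086, but 0.039 without dawn 3 and -0.017 without midnight 2. DNAJB9, a chaperone of the endoplasmic reticulum, was at 51.6, 30.7 and 50.6 FPKM at dawn and 26.4, 25.9 and 37.4 FPKM at midnight (limma log2 0.54). HSPA5, the chaperone BiP, was at 65.5, 43.9 and 59.9 FPKM at dawn and 47.1, 34.7 and 44 FPKM at midnight (limma log2 0.42). In both genes dawn 2 lay within the midnight range. Over 74 genes of oxidative phosphorylation the median was -0.005, and 0.021 after median-of-ratios scaling, and over 26 genes of glycolysis it was 0.032. Of these, 3 lay apart above and 4 below midnight in oxidative phosphorylation, and 0 above and 2 below in glycolysis, against 7.01% above and 9.75% below over all genes. Without dawn 3 the medians were -0.068 in oxidative phosphorylation and -0.015 in glycolysis, and without dawn 1 they were 0.033 and 0.102. SPR, the last enzyme of tetrahydrobiopterin synthesis, was at 11.1, 11.6 and 9.93 FPKM at dawn and 16.3, 15.8 and 12.9 FPKM at midnight. It was the 1 of 9 genes of cofactor and methyl donor supply with groups apart, near the 9.75% below over all genes. At an unadjusted limma p under 0.05, 1 of the 9 was higher and 1 lower at dawn.

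**Figure D4:**
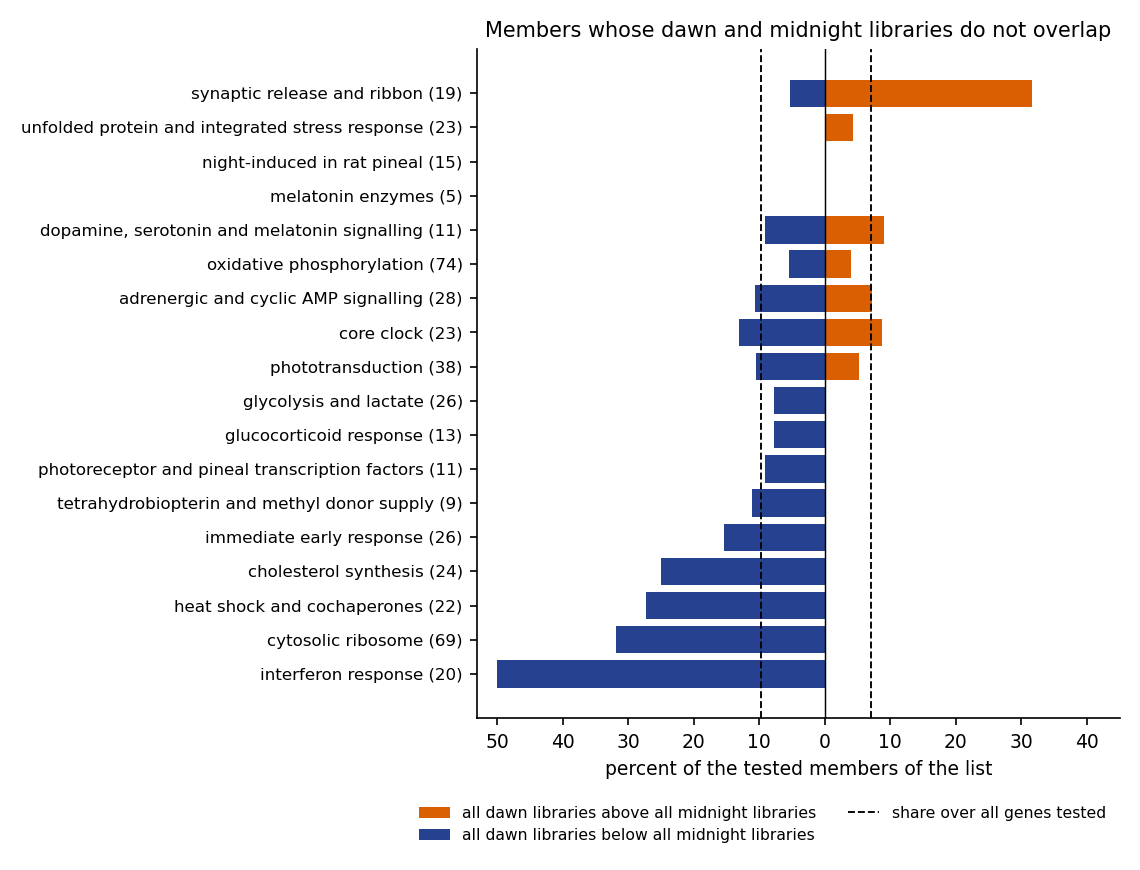
Percent of the tested members of each of 18 gene lists whose 3 dawn libraries all lay above (orange, to the right) or all below (blue, to the left) the 3 midnight libraries, with the number tested in brackets. Dashed lines are the shares over all genes tested, 7.01% above and 9.75% below. The interferon list reached 10 of 20 below and the synaptic list 6 of 19 above.

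Markers of other cells of the gland and its surroundings differed between the libraries. The summed level of 7 choroid plexus markers was 966, 365 and 337 FPKM in the dawn libraries and 1133, 1141 and 845 FPKM in the midnight libraries, with dawn 1 among the midnight values. All 7 had a negative difference, with a median log2 of -1.27, and -1.89 without dawn 1, and 4 of 7 lay apart below midnight, against 9.75% of all genes. The 10 fibroblast and mural cell markers summed to 195, 116 and 111 FPKM in the dawn libraries and 266, 218 and 174 FPKM in the midnight libraries, with 10 of 10 negative and a median log2 of -0.74. TTR, the thyroid hormone carrier that is the most abundant of the choroid plexus markers, was at 679.8, 293 and 239 FPKM at dawn and 754, 784 and 559 FPKM at midnight. DCN, a matrix proteoglycan of fibroblasts, was at 51.7, 27.2 and 23.9 FPKM at dawn and 64.5, 55 and 46.8 FPKM at midnight. HBB, the beta chain of haemoglobin, was at 12.9, 13.6 and 1.81 FPKM at dawn and 41.3, 24.2 and 22.2 FPKM at midnight, below midnight in every dawn library, while HBA1 and HBA2 were at 0 in all 6. The 9 endothelial markers summed to 47.7, 35.8 and 41.6 FPKM in the dawn libraries and 84.9, 52.3 and 46.3 FPKM in the midnight libraries. PTGIS, TGM2, MXRA8 and DSP, which were lower at dawn, are known from vessels, connective tissue or epithelia, and the part of such cells in their differences was not tested. They are examples, since the other genes that fell were not sorted by cell type.

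Oligodendrocyte markers ran the other way and rested on dawn 2 and dawn 3. The 12 markers summed to 66, 493 and 185 FPKM in the dawn libraries and 84.6, 103 and 67.1 FPKM in the midnight libraries, with 11 of 12 positive, a median log2 of 1.23 and groups overlapping in all 12. MAG, a myelin protein, was at 2.11, 27.2 and 12.1 FPKM at dawn and 2.60, 4.89 and 1.31 FPKM at midnight, and the list median was 0.527 without dawn 2 and 2.02 without dawn 1. The 8 astrocyte markers summed to 423, 719 and 506 FPKM in the dawn libraries and 504, 615 and 394 FPKM in the midnight libraries with overlap. Of the 8, 6 had a positive and 2 a negative difference. Among them 1 lay apart above midnight and 1 below, against 7.01% and 9.75% of all genes. ALDH1L1, a folate enzyme of astrocytes, was at 2.21, 2.97 and 2.50 FPKM at dawn and 1.83, 1.54 and 1.27 FPKM at midnight. It rose in the authors' deposited table (log2 0.67, adjusted p = 0.032). SLC39A12, another of the 8, lay the other way, at a limma log2 of -1.81 to -0.99 when each library was left out. With the mean oligodendrocyte level as a term in the model, limma called 0 genes and 1610 were at an unadjusted p under 0.05. Of 8 neutrophil markers, 1 passed the filter, S100A9.

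**Figure D5:**
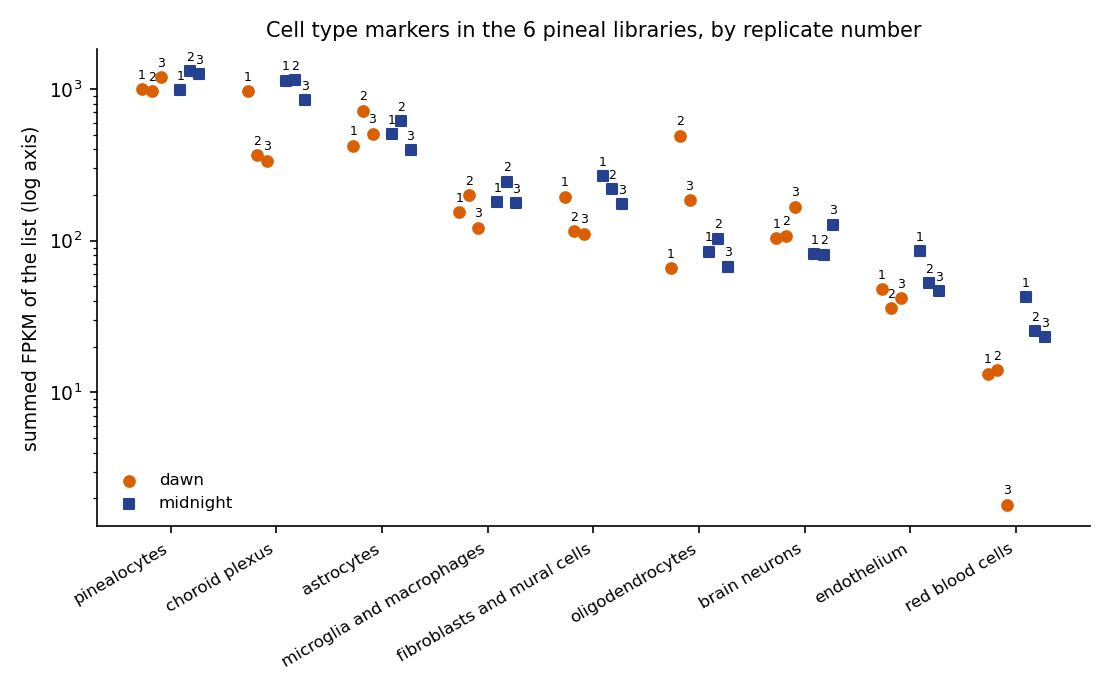
Summed FPKM of each cell type marker list in the 3 dawn (orange circles) and 3 midnight (blue squares) pineal libraries, on a log axis, with replicate numbers beside the points. Choroid plexus and connective tissue sums were lower in dawn 2 and dawn 3, red blood cell sums were lower in every dawn library, the oligodendrocyte sum was highest in dawn 2 (493), and pinealocyte sums overlapped.

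For many of the called genes the mid-day and dusk means lay closer to midnight than to dawn. Of the 261 genes called in the authors' deposited table, the mid-day and dusk means on the log2(FPKM + 0.5) scale were both closer to midnight than to dawn in 157, and both closer to dawn in 60. Of the 118 that rose, 76 had both other times closer to midnight, and of the 143 that fell, 81 did. LGMN, LRTM1 and GUCA1A, described above, are of that kind. The calls were chosen on dawn and midnight, so this describes where the other 6 libraries fall and is no test. The same share over all genes tested was not counted. Being closer to midnight does not mean that the libraries of a time were apart from dawn.

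The retina of the same study gives the same contrast in a second tissue. By limma 0 of 21890 retina genes were called between dawn and midnight, with 982 at an unadjusted p under 0.05, and the authors' deposited retina table called 52, of which 18 rose and 34 fell at dawn. The 2 lists of calls shared 1 gene, so 1 of 52 and 1 of 261. It was CHRNB4, which rose at dawn in the authors' deposited pineal table (log2 0.83, adjusted p = 0.0408) and fell in the authors' deposited retina table (log2 -0.85, adjusted p = 7.43e-05). Of the pineal calls tested in both tissues, 100 of 175 (57.1%) had the same sign in the retina, against 51.3% of the 16446 genes tested in both. The difference between the tissues was tested with 24 libraries, taken as independent, in limma: 0 of 24740 genes (0%) passed an adjusted p under 0.05, with 1552 at an unadjusted p under 0.05 and a smallest adjusted p of 0.128. The study had 12 animals for both tissues, so a pineal and a retina library can come from the same animal. The fit did not pair them, which limits all p-values given for this difference. Retina dawn 2 stood apart from the other dawn and midnight retina libraries by its share of genes at 0, 44.8%, and without it limma called 1 retina gene and 0 genes for the difference between the tissues.

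CHRNB4 led that comparison, higher at dawn in every pineal library and lower in every retina library, where it was at 1.10, 1.72 and 1.47 FPKM at dawn and 4.84, 5.57 and 3.21 FPKM at midnight. The difference between the tissues was 2.35 ± 0.38 (SE) on the log2 scale, with a limma adjusted p of 0.128. NFASC was at 20.8, 19.3 and 21.5 FPKM at dawn and 17.5, 19.9 and 20.3 FPKM at midnight in the retina, with overlap (limma adjusted p = 0.129 for the difference between tissues). LRTM1 was at 66.2, 66.1 and 51.7 FPKM at dawn and 48.1, 48.3 and 75.3 FPKM at midnight there, also with overlap (limma adjusted p = 0.159 for that difference). The retina held LRTM1 near the pineal midnight level at both times. GUCA1A was at 319.9, 332 and 283 FPKM at dawn and 294, 280.5 and 221 FPKM at midnight in the retina, above every pineal library of the 2 times (limma adjusted p = 0.388 for the difference between tissues). None of these differences between tissues passed the threshold in the fit used here, while CHRNB4 did with no filter on low values (limma adjusted p = 0.0496) and with a pseudocount of 1 (limma adjusted p = 0.0484). With weights for library quality, limma's adjusted p was 0.00192 for CHRNB4 and 0.0371 for NFASC and for LRTM1.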

How the data were processed

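Total RNA of individual macaque pineal glands and retinas was sequenced; 6 pineal libraries, 3 of dawn and 3 of midnight, carry this comparison, and groups come from the sample titles. The submitters' processing notes name STAR 2.3.0e, FastQC, Subread, featureCounts, DESeq2 and a human genome build; the annotation version and strand setting are not given in the sources used here, so overlapping and antisense genes cannot be told apart. The FPKM values were made by the authors from gene counts and deposited in 1 table for all 26 libraries. The deposited tables of the authors' own comparisons hold, per the file headers, a mean normalised count (a signal scaled by size factors), a log2 fold change with its error, a test statistic (a score) and raw and adjusted p-values, and in 99.9% of genes the means matched reads recovered here from the 6 libraries to within 0.01 log2.

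Genes with at least 1 FPKM in at least 3 pineal libraries were tested on log2(FPKM + 0.5) with limma 3.58.1 in R 4.3.3, with a mean-variance trend, all 12 pineal libraries in 4 groups, two-sided tests and Benjamini-Hochberg adjustment at 0.05. On that scale the changes of low genes are understated. An exact permutation test of 3 against 3 cannot go below p = 0.1. FPKM steps gave whole reads for 40687 of 40687 genes above 0 in at least 2 libraries, to a tolerance of 0.0001, and voom was run on these reads. The fitting was tested on simulated data. The members and the 29 gene lists were chosen with earlier results of these data known. Genes are named as the 15 smallest limma p-values in each direction without overlap between the times, the 8 largest changes, up to 4 members of each list, the 6 leading genes in each direction of the authors' deposited table and the 6 leading genes of the tissue difference; XAF1 and the period and cryptochrome genes were chosen after their values were seen, and not every gene so named is described. Alternatives covered the pseudocount, filter, scaling, weights, samples in the fit, covariates and leaving out each library.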

Additional observations from a re-analysis of the deposited data

How the results depend on the processing

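Of 79 named genes followed through 22 settings, 1720 of 1726 values kept their direction and their side of the threshold. DOCK2 passed limma's adjusted p without dawn 1 (0.0127, log2 2.87), with a range of 1.71 to 2.87 over the libraries left out. PER1 changed sign under quantile normalization (0.0005) and ran from -0.2427 to 0.117 with libraries left out. In the pineal gland limma called 1 gene with a pseudocount of 0.1, 4 with no filter, 0 to 1 when a library was left out and 0 under the other settings, voom included. A filter of 5 FPKM, which tests fewer genes, left 1112 at an unadjusted p under 0.05 and 1986 not overlapping. At an adjusted p under 0.1 the authors' deposited table called 418. In the retina limma called 3 with no filter, 1 under quantile normalization, 2 with library weights and 0 to 1 when a library was left out. For the difference between tissues it called 1 with a pseudocount of 0.1, 2 with a pseudocount of 1 (CHRNB4 among them), 6 with no filter, 3 with no mean-variance trend, 21 with library weights and 0 to 3 when a library was left out. The causes of these changes were not tested. Same-numbered libraries deviated together at r = 0.081, 0.002 and 0.115, which does not pair them, and with a replicate block 0 genes were called and 2061 were at an unadjusted p under 0.05. Voom on the 6 libraries alone, chosen after seeing the data, called 0, with 1984 at an unadjusted p under 0.05. The labels give no age or sex per animal, and 3 animals a time limit the precision.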
